A study of Saccharomyces cerevisiae with 11 samples.

Results

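Yeast cells carrying PAF1 under a doxycycline-repressed promoter were compared at 1 point of a shut-off time course, 5 h, with the same strain at 2, 6 and 8 h. The comparison used 4 of the 11 arrays of the series. A transcript counted as higher or lower at 5 h where its signal lay outside all 3 other arrays and 2-fold or more from the mean of their log2 signals. Total RNA of Saccharomyces cerevisiae, about 8 µg a sample, had been copied into biotin-labelled cRNA for Affymetrix yeast arrays, 1 per sample. The 4 compared cultures were the TetO2-Paf1 strain in liquid medium at mid-log phase, treated with doxycycline for 2, 5, 6 or 8 h. The 0 h culture of that strain had received no doxycycline, and a further culture had been treated for 4 h. The other 5 arrays held wild type (2 arrays), a paf1 deletion (2 arrays) and a ctr9 deletion (1 array), all grown in YPD with 4% glucose. The TetO2 promoter replaces the native control of PAF1, so all 6 time course cultures, the 0 h culture included, express it from a foreign promoter. There was 1 array per time and nothing in the labels says whether the cultures were grown separately, so no value below has a replicate.

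The Paf1 complex (Paf1, Ctr9, Cdc73, Rtf1 and Leo1) travels with RNA polymerase II, is needed for several histone modifications of transcribed genes, and takes part in forming the 3' ends of small nucleolar RNAs. Budding yeast also has a broad environmental stress response, in which genes for glycogen, trehalose and protein protection go up while genes for ribosome assembly go down. Reserve carbohydrate and stress genes are sensitive to growth rate and glucose supply, and many cell cycle genes are transcribed in waves, with histone and DNA replication genes near the start of S phase and mitotic genes later.

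PAF1 itself did not set the 5 h array apart. Its signal was 272 in the untreated culture, then 119, 139, 165, 184 and 166 after 2, 4, 5, 6 and 8 h, so that the 5 h value was inside the range of the 3 compared arrays and 60.6% of that at 0 h. The log2 difference between 5 h and the mean of 2, 6 and 8 h (called the log2 difference from here on) was 0.10 for PAF1. The 5 h array had a median signal of 108.3, the lowest of the 6, which otherwise lay between 113.2 and 126.8. Across probe sets, log2 signals at 5 h correlated with those at 2, 6 and 8 h with Pearson's r of 0.976, 0.971 and 0.969, as a description of arrays that share a probe design. Spike-in controls were 4.37-fold the 0 h level on the 4 h array and 4.07-fold on the 6 h array, against 1.02-fold to 1.11-fold at 2, 5 and 8 h. The signal at the 5' end of actin was 5.92% of that at its 3' end after 4 h, and between 68.6% and 78.6% of it otherwise. The part of either in any result was not tested. Genes specific to a-cells were mostly bright and those specific to alpha-cells dim, apart from SAG1. MFA1 and MFA2, the a-factor genes, had signals of 5848 to 15883 and of 6309 to 10724. MF(ALPHA)1 and MF(ALPHA)2, the alpha-factor genes, had signals of 37.1 to 67.3 and of 25.8 to 49.2, while SAG1, the alpha-agglutinin gene, reached 1139. The mating type is not in the labels.

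Of 6492 probe sets that passed a filter on low signal, 63 (0.97%) were higher and 111 (1.71%) lower at 5 h by the 2-fold rule. Without the 2-fold minimum, the 5 h array was above all 3 others for 1358 (20.9%) and below them for 2567 (39.5%). Counted by gene, with the brightest probe set standing for each, 16 of 4996 genes were higher (0.32%) and 87 lower (1.74%), while 905 (18.1%) were above and 2174 (43.5%) below all 3. The median log2 difference over the 4996 genes was -0.13, with 5th and 95th percentiles of -0.77 and 0.41, so the lists below are read against -0.13 and not against 0. Counts of list members above and below all 3 arrays are likewise read against 18.1% and 43.5%. Counts of members higher and lower by 2-fold are read against 0.32% and 1.74%. The median over probe sets was -0.10 as deposited, -0.01 after quantile normalization and 0.07 after centring each array on its median. The split of the counted probe sets followed that choice: 36.2% of them were higher as deposited, 57.2% after quantile normalization (99 higher and 74 lower) and 67.6% after centring (117 higher and 56 lower). The 16 higher and 87 lower genes likewise became 24 and 54 after quantile normalization, 30 and 39 after centring, and 12 and 46 with a pseudocount of 16 in place of the floor.

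No probe set passed a test. limma, an empirical Bayes linear model, found 0 (0%) at a Benjamini-Hochberg adjusted p of 0.05, where the smallest adjusted p was 0.0581, shared by 4 probe sets. At an unadjusted p under 0.05 there were 698 (10.8%), 200 higher and 498 lower. The test had 2 residual degrees of freedom, assumed that the lone 5 h array varies like the other 3, and counted change between 2, 6 and 8 h as spread. Controls for sequences that yeast lacks reached signals of up to 44.2. Under that level were the 5 h signal of 26 of the 87 lower genes and the mean over 2, 6 and 8 h of 3 of the 16 higher genes. The size of a difference that rests on such a signal is uncertain. The 2-fold line was a soft one: VLD1 at 1.02 and YOX1 at 0.95 lay either side of it above, and NNR2 at -1.001 and the tRNA gene YNCE0010W at -0.99 below. The nearest of the 3 other arrays was itself 2-fold or more away for 4 of the 16 and 28 of the 87.

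**Figure D1:**
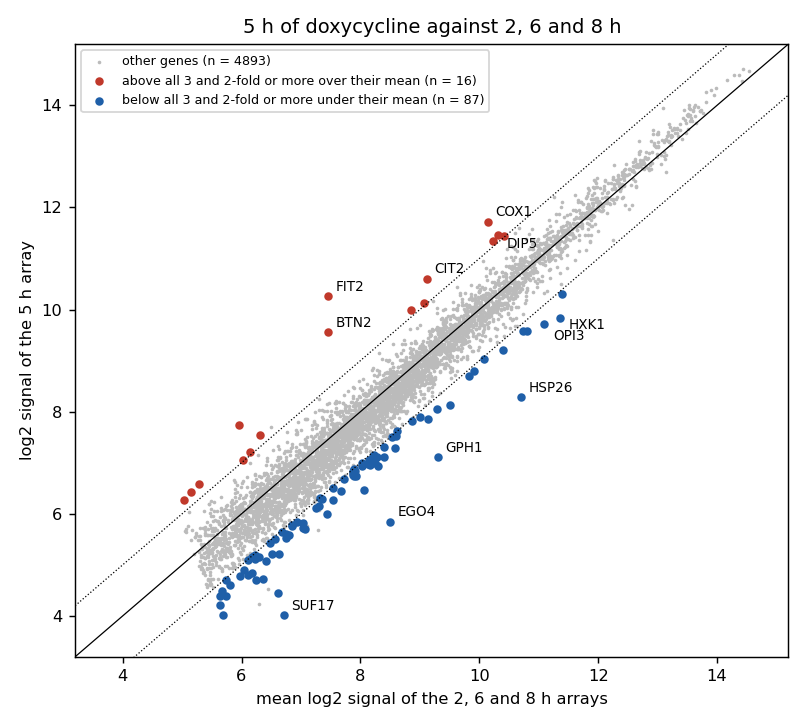
Log2 signal of each of 4996 genes at 5 h (vertical axis) against the mean of the log2 signals at 2, 6 and 8 h (horizontal axis); the solid line marks equality and the dotted lines 2-fold. The 16 genes higher by the rule (red) and the 87 lower (blue) lie beyond the dotted lines, with FIT2 and BTN2 farthest above and EGO4, HSP26 and SUF17 far below.

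HSP26, EGO4 and GPH1, which were among the genes farthest below the other arrays, stood high on every other doxycycline array and near their untreated level at 5 h. HSP26 encodes a small heat shock protein and had signals of 311 at 5 h, against 2057, 1263 and 1778 at 2, 6 and 8 h, 292 at 0 h and 2922 at 4 h. EGO4 gave 51.8 at 0 h, 351 and 536 at 2 and 4 h, 57.5 at 5 h, and 310.1 and 435 at 6 and 8 h. GPH1, the gene of glycogen phosphorylase, gave 134, 575, 779.8, 138, 588 and 753 at 0, 2, 4, 5, 6 and 8 h. For these 3 genes the 5 h value was 107%, 111% and 103% of the 0 h value and far below the other 4 doxycycline arrays. The log2 differences were -2.42 ± 0.28 (limma SE) for HSP26, -2.65 ± 0.26 for EGO4 and -2.20 ± 0.23 for GPH1, with adjusted p of 0.0669, 0.0581 and 0.0581 in limma. HXK1, a hexokinase gene known to be repressed by glucose, measured 908 at 5 h, against 2573, 2715 and 2560.2 at 2, 6 and 8 h, 491 at 0 h and 2223 at 4 h. Its 5 h value was 185% of the untreated one but still 2.88-fold below the other 3 arrays (log2 difference -1.53 ± 0.15).

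Most members of the general stress list were below the other arrays, but not all of them. Of its 36 genes 32 passed the filter, 8 were lower by 2-fold and 0 higher, 21 were below and 7 above all 3 other arrays, and the median log2 difference was -0.35 against -0.13 for all genes. HSP12, which encodes a small membrane-associated stress protein, had signals of 529 at 0 h, 1639 and 1723 at 2 and 4 h, 767 at 5 h, and 1731 and 2024 at 6 and 8 h. PRX1, a mitochondrial peroxiredoxin gene, gave 181, 560.2, 684, 264, 650.0 and 682 at 0, 2, 4, 5, 6 and 8 h. At 5 h they were at 145% and 146% of their 0 h signals, and both lay 2-fold or more below each of the 2, 6 and 8 h arrays. The aldehyde dehydrogenase genes ALD2 and ALD3 also counted as lower, with signals of 26.4 and 21.1 at 5 h, but these and their 0 h signals of 33.8 and 29.5 were under the 44.2 reached by controls for sequences yeast lacks, so neither a size nor an order against 0 h is read from them.

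Genes of glycogen and trehalose turnover were near the background in their median and share below, but not in their other counts. Of 17 that passed, 3 were lower by 2-fold, against 1.74% of all genes. Below all 3 arrays were 9 (52.9%, against 43.5% of all genes), and 0 were above them, against 18.1% of all genes. The median of -0.20 was only -0.07 from that of all genes. Over the alternatives this distance ran from -0.17 to 0.15, so the list median carries no direction. GSY1, a glycogen synthase gene, had signals of 127 at 5 h, against 355, 282 and 282 at 2, 6 and 8 h, 57.7 at 0 h and 151 at 4 h. PGM2, the major phosphoglucomutase gene, gave 148 at 0 h, 609 and 463 at 2 and 4 h, 232 at 5 h, and 753 and 394 at 6 and 8 h. GLC3, the gene of the branching enzyme, was lower at -0.96, just short of the 2-fold rule, but its lowest doxycycline array was the 4 h one, with 236 against 330.4 at 5 h. For GSY1, PGM2 and GLC3 the 5 h signal stayed above that of the untreated culture.

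Set against the 0 h array, the median member of the general stress list was higher (log2) by 0.61 at 5 h and by 1.09, 1.03, 0.94 and 1.03 at 2, 4, 6 and 8 h. The glycogen and trehalose list stood at 1.14 and at 1.52, 0.89, 1.499 and 1.65 in the same order, so its lowest doxycycline array was that of 4 h, and all genes at -0.02 and at 0.04, 0.12, 0.11 and 0.10. These values share the 0 h array. With the 0 h array added to the comparison, 4 of 32 general stress genes and 0 of 16 glycogen and trehalose genes lay below all 4 arrays, against 29.1% of all genes, and their medians were -0.15 and 0.04 against -0.10 for all genes. Of the 21 general stress genes below the 2, 6 and 8 h arrays, all but 4 were thus not below the untreated culture. The count of 8 general stress genes was 7, 7 and 10 without the 6, 8 and 2 h arrays, and the median was -0.32 after quantile normalization and -0.18 after centring, where all genes were at -0.03 and 0.04.

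**Figure D2:**
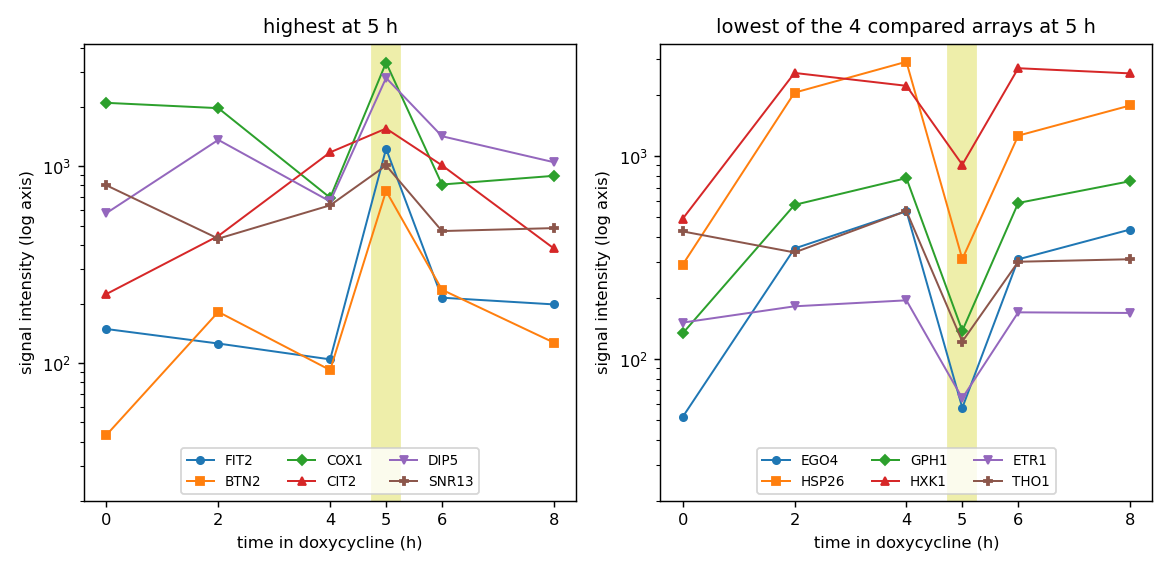
Signal (log axis) of 12 genes on the 6 time course arrays against hours in doxycycline, 1 array per time, with 5 h shaded. The 6 genes on the left reach their highest signal at 5 h, and on the right EGO4, HSP26 and GPH1 come near their 0 h signal there, HXK1 lies above it at 185%, and ETR1 and THO1 lie under it.

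Chaperone genes were not lower as a group. Of 29 in the heat shock list, 13 were above and 9 below all 3 arrays, 1 was higher and 2 lower by 2-fold, and the median was 0.06. BTN2, which encodes a protein that sorts misfolded proteins, had signals of 43.2, 182.3, 92.3, 750.1, 236 and 127 at 0, 2, 4, 5, 6 and 8 h. Its 5 h signal was the highest of the 6 by a wide margin, with a log2 difference of 2.09 ± 0.35 (limma adjusted p 0.253). FES1, the gene of a nucleotide exchange factor of Hsp70, gave 3078 at 5 h, against 1475, 1932 and 1513 at 2, 6 and 8 h, 1513 at 0 h and 1509 at 4 h. FES1 stood above all 5 other arrays (log2 difference 0.92). HSP26 and HSP12, which also belong to this list, were the 2 lower members. After quantile normalization 8 chaperone genes were above and 13 below, with a median of 0.01. Without the 6 h array 3 chaperone genes were higher by 2-fold in place of 1.

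Several lower transcripts were under the untreated level as well. THO1, which encodes a nucleic acid-binding protein linked to transcription elongation, had signals of 426 at 0 h, 335 and 537 at 2 and 4 h, 122 at 5 h, and 302 and 310.4 at 6 and 8 h. ETR1, the gene of a mitochondrial enoyl thioester reductase, gave 151, 181.9, 195, 64.1, 169.9 and 169 at 0, 2, 4, 5, 6 and 8 h. SKS1, a protein kinase gene tied to glucose adaptation, gave 87.9 at 5 h, against 271, 260.4 and 271 at 2, 6 and 8 h, 159 at 0 h and 156 at 4 h. Their 5 h signals were 28.7%, 42.4% and 55.4% of those at 0 h, and their signals at 2, 6 and 8 h had an SD of only 0.08, 0.06 and 0.03 (log2, n = 3). The log2 differences were -1.37 ± 0.21, -1.44 ± 0.23 and -1.60 ± 0.21, with limma adjusted p of 0.245, 0.253 and 0.113. OPI3, which encodes the last methyltransferase of phosphatidylcholine synthesis, was instead at its untreated level, with 849.5 at 0 h, 1625 and 2943 at 2 and 4 h, 841 at 5 h, and 2309 and 2783 at 6 and 8 h. Over the 87 lower genes, 61 were below the 0 h array too (70.1%, against 52.7% of all genes) and 85 below the 4 h array (97.7%, against 64.5%). Within 1.5-fold of 0 h were 30 of them (34.5%, against 76.6% of all genes). The median signal of the 87 was 123, 175, 203, 79.3, 230.1 and 201 at 0, 2, 4, 5, 6 and 8 h.

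Transfer RNA probe sets made up 14 of the 87 lower genes, a grouping by RefSeq gene class chosen after the values were seen. Of 86 tRNA genes that passed, 14 were lower and 0 higher by 2-fold, against 1.74% and 0.32% of all genes. Below all 3 arrays were 44 and above them 2, against 43.5% and 18.1% of all genes, so the count below was not far from the background. The median was -0.71, against -0.13 for all genes. Their median signal was 81.5 at 5 h, against 105.5, 254.3 and 119.6 on the 2, 6 and 8 h arrays, 203.5 untreated and 102 after 4 h, so the arrays differed widely among themselves and the 5 h one was the lowest. SUF17 gave 16.2 at 5 h, against 154, 280.0 and 26.7 at 2, 6 and 8 h, 368 at 0 h and 33.3 at 4 h. The difference of -2.70 for SUF17 rested on the 2 and 6 h arrays, since the 4 and 8 h signals were also low, and it was -1.99 without the 6 h array and -3.68 without the 8 h array. YNCM0007C gave 321 at 0 h, 161 and 81.7 at 2 and 4 h, 21.7 at 5 h, and 263 and 22.2 at 6 and 8 h, where the 8 h array all but equalled the 5 h one, and its difference of -2.17 was -1.46 and -3.24 without those arrays. YNCK0003W gave 83.6, 40.5, 109.5, 16.2, 54.4 and 61.7 at 0, 2, 4, 5, 6 and 8 h. Its 2 and 5 h signals were under the 44.2 reached by controls for sequences yeast lacks, so their order is not read. The same holds for SUF17 at 4, 5 and 8 h and for YNCM0007C at 5 and 8 h. Without the 2, 6 and 8 h arrays the count was 31, 9 and 31, and the median without the 6 h array, on which tRNA and spike-in signals were both high, was -0.44. tRNA genes exist in near-identical copies, so a probe set cannot be tied to 1 of them.

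Other stable non-coding RNAs lay on the opposite side. Of 48 small nuclear and nucleolar RNAs with an SNR name, 26 were above and 4 below all 3 arrays, and the median was 0.32, 0.43 after quantile normalization and 0.48 after centring. SNR13, a C/D box RNA, had signals of 1011 at 5 h, against 429.5, 469 and 486 at 2, 6 and 8 h, 801 at 0 h and 634 at 4 h. Its 2, 6 and 8 h signals differed by little (SD 0.09, log2, n = 3) and its 5 h signal was 2.19-fold higher. SNR76 went the other way, with 269 at 0 h, 108 and 157 at 2 and 4 h, 37.2 at 5 h, and 89.5 and 99.4 at 6 and 8 h, lower at -1.41 ± 0.28 and the lowest of the 6 arrays at 5 h. Against 0 h the list stood at -0.50, -0.26, -0.21, -0.48 and -0.65 (median log2) at 2, 4, 5, 6 and 8 h. With 0 h among the comparison arrays, 8 of 48 were above all 4, near the 13.1% of all genes. RPR1, the RNA of RNase P, had signals of 1697, 908, 405, 1119.7, 463 and 375 at 0, 2, 4, 5, 6 and 8 h, so that it too was highest at 5 h among the compared arrays but below 0 h. Without the 2 h array 3 SNR genes were higher by 2-fold in place of 1.

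Ribosomal RNA probe sets were high at 5 h, from rDNA units that repeat many times in the genome. RDN25-1, the 25S rRNA, gave 213 at 5 h, against 24.3, 98.2 and 100.2 at 2, 6 and 8 h, 111 at 0 h and 42.0 at 4 h, and its log2 difference of 1.78 ± 0.78 was 1.11 without the 2 h array. RDN37-1, the precursor rRNA of the repeat unit, gave 3751 at 0 h, 1596 and 1186 at 2 and 4 h, 2773 at 5 h, and 1416 and 1113 at 6 and 8 h. It was lower at 5 h than at 0 h and higher than on the other 4 arrays. The 7 RDN37-1 probe sets had log2 differences of 0.19 to 3.22, so they did not measure 1 common level, and 4 of them were too dim for the filter.

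**Figure D3:**
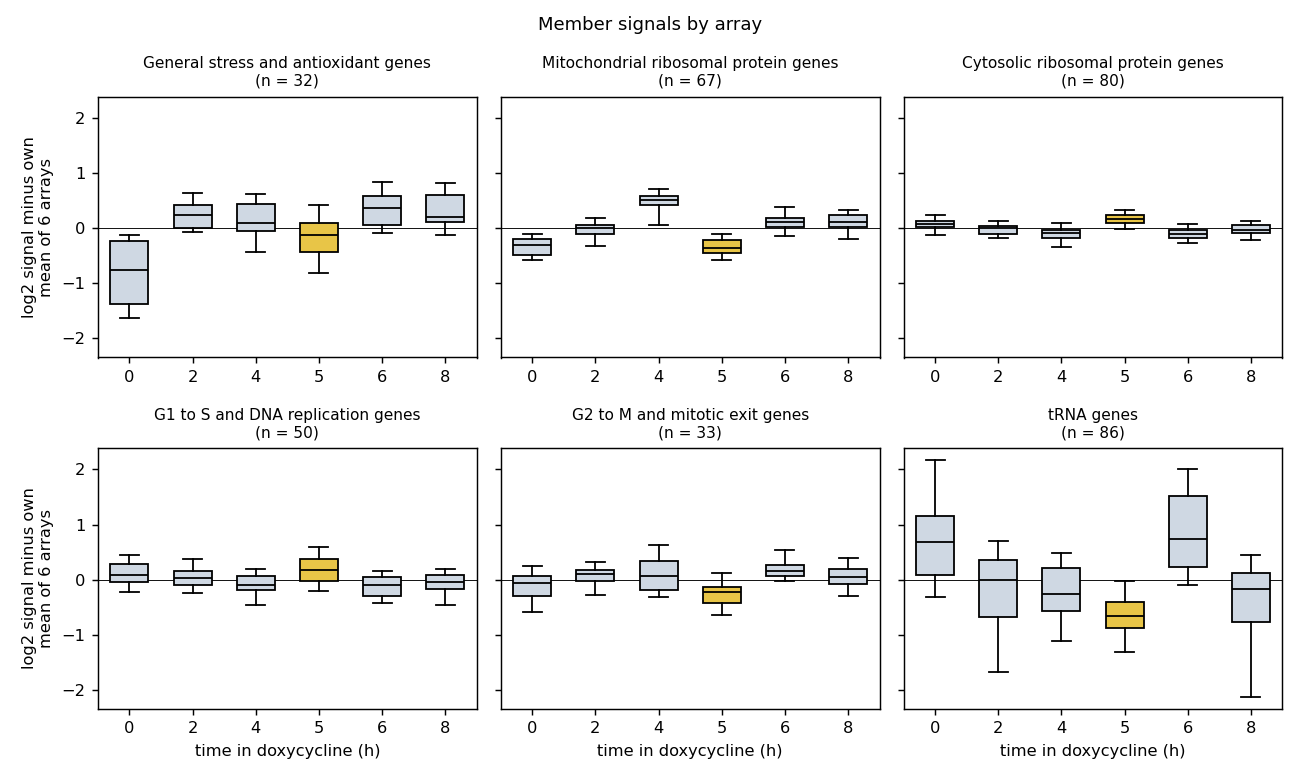
Log2 signal of list members on each time course array, minus each gene's own mean over the 6 arrays; boxes span the quartiles, lines inside are medians, whiskers the 5th to 95th percentile of genes, and the 5 h array is yellow. At 5 h the general stress, mitochondrial ribosomal protein, G2 to M and tRNA boxes lie below those at 2, 6 and 8 h, and the cytosolic ribosomal protein and G1 to S boxes above them.

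Mitochondrial ribosomal protein genes stood apart at 5 h, and so, as deposited, did cytosolic ones, whose shift depended on scaling. All 67 mitochondrial ribosomal protein genes of the list passed the filter, 58 were below and 0 above all 3 arrays, and the median was -0.42, although none reached 2-fold. MRPL31 had signals of 700.4, 1099, 1416, 679, 1135 and 1267 at 0, 2, 4, 5, 6 and 8 h. MRPS12 gave 1287 at 5 h, against 2124, 1972 and 2446 at 2, 6 and 8 h, 1578 at 0 h and 2809 at 4 h. MRPL38 gave 929 at 0 h, 1227 and 1673 at 2 and 4 h, 684 at 5 h, and 1107 and 1132 at 6 and 8 h. The 3 genes, which encode subunits of the mitochondrial ribosome, were below their untreated level at 5 h and highest at 4 h. Against 0 h the list median was 0.29, 0.84, -0.01, 0.38 and 0.47 (log2) at 2, 4, 5, 6 and 8 h. It was -0.31 at 5 h after quantile normalization and -0.25 after centring, or -0.27 and -0.29 relative to all genes.

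Of 80 cytosolic ribosomal protein genes, 60 were above and 2 below all 3 arrays, with a median of 0.23. RPL17A had signals of 15022, 12569.9, 11791, 16395, 10559.7 and 12190.3 at 0, 2, 4, 5, 6 and 8 h. RPL7A gave 11332 at 5 h, against 8394, 8066 and 8288 at 2, 6 and 8 h, 7498 at 0 h and 6563 at 4 h. Both encode large subunit proteins and were higher at 5 h than on each of the other 5 arrays, by less than 1.5-fold against the mean of 2, 6 and 8 h. This shift depended on scaling: after quantile normalization 26 were above and 13 below, with a median of 0.04 against -0.03 for all genes. Many of these genes have a near-identical copy, so that probe sets may read both. Translation factor and tRNA synthetase genes were at 0.09, with 22 of 49 above and 11 below. TEF4, a subunit gene of elongation factor 1B, gave 4196 at 0 h, 3501 and 3161 at 2 and 4 h, 5169.7 at 5 h, and 4041 and 3538 at 6 and 8 h.

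Ribosome assembly genes did not follow the ribosomal proteins. The small subunit list (58 genes) had 10 above and 26 below, with a median of -0.13, and the large subunit list (63 genes) 4 above and 26 below, with a median of -0.14, both near the -0.13 of all genes. Against 0 h the small subunit list stood at -0.89 at 5 h, between -0.87 and -0.59 at 2, 6 and 8 h, and at -0.37 at 4 h (median log2). The large subunit list stood at -0.96 at 5 h, between -0.85 and -0.68 at 2, 6 and 8 h, and at -0.32 at 4 h. The lower level of these genes under doxycycline, smallest at 4 h, was therefore present at 5 h. That was the doxycycline array on which general stress genes were nearest to the untreated culture. NOP14, a factor of the small subunit processome, gave 487, 267, 279, 181, 247 and 325 at 0, 2, 4, 5, 6 and 8 h. SSF2, a large subunit assembly factor, gave 149.7 at 5 h, against 313, 298 and 215 at 2, 6 and 8 h, 365 at 0 h and 193 at 4 h, the lowest of its 6 signals at 5 h.

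Transcripts encoded in mitochondrial DNA were among the highest at 5 h. Only 4 of 16 passed the filter, and each of the 4 was above all 3 arrays (median 1.02), 2 of them by 2-fold. COX1, which encodes subunit 1 of cytochrome oxidase, had signals of 2103 at 0 h, 1977 and 693 at 2 and 4 h, 3368 at 5 h, and 809 and 895 at 6 and 8 h. Its 3 probe sets gave log2 differences of 1.57, 1.58 and 2.21. COB, the cytochrome b gene, gave 70.4, 64.5, 61.2, 96.3, 41.1 and 22.2 at 0, 2, 4, 5, 6 and 8 h, at the dim end of the scale. ATP6 and OLI1, genes of the membrane part of ATP synthase, were higher by 0.72 and 0.55. For all 4 genes the 2 h signal was the next highest of the compared arrays, and the 6 and 8 h signals were lower. Without the 2 h array 3 were higher by 2-fold, without the 8 h array 1.

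Nuclear genes of respiration were near the background as a list, with single members on either side. Of 45 respiratory chain and TCA genes, 10 were above all 3 arrays (22.2%, against 18.1% of all genes) and 21 below (46.7%, against 43.5%), with a median of -0.11. IDH2 and IDH1, which encode the mitochondrial NAD-dependent isocitrate dehydrogenase, were at their highest at 5 h. IDH2 gave 5926 at 5 h, against 3413, 4279 and 4127 at 2, 6 and 8 h, 1162 at 0 h and 3653 at 4 h. ATP2, the gene of the beta subunit of ATP synthase, was at its lowest, with 2160.2 at 0 h, 2819 and 2922 at 2 and 4 h, 1451 at 5 h, and 2666 and 2489 at 6 and 8 h. CIT2, the peroxisomal citrate synthase gene and a classic target of mitochondrial retrograde signalling, was high at 4 h already and highest at 5 h, with 225, 443, 1179, 1557, 1012 and 383 at 0, 2, 4, 5, 6 and 8 h (log2 difference 1.49 ± 0.51). COX5B, which encodes the isoform of a cytochrome oxidase subunit used under low oxygen, gave 138 at 5 h, against 378, 312 and 255.3 at 2, 6 and 8 h, 102 at 0 h and 340.4 at 4 h, lower at -1.17.

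FIT2 was the farthest of all genes above the other arrays. It encodes a cell wall mannoprotein that retains siderophore-bound iron, and its signals were 149 at 0 h, 126 and 105 at 2 and 4 h, 1229 at 5 h, and 215 and 199 at 6 and 8 h. The 5 h signal was 7.01-fold over the mean of 2, 6 and 8 h and 5.71-fold over the 6 h array, the next highest of the 6 (log2 difference 2.81 ± 0.33, limma adjusted p 0.0669). The remainder of the iron and metal list did not share this: of 35 that passed, 8 were above and 8 below all 3 arrays, FIT2 was the only one past 2-fold, and the median was 0.04. CTR3, a copper transporter gene, gave 10.6, 61.4, 196, 128, 73.8 and 77.4 at 0, 2, 4, 5, 6 and 8 h, and FRE3, a ferric reductase gene, 24.6 at 5 h, against 51.1, 39.4 and 45.1 at 2, 6 and 8 h, 33.7 at 0 h and 48.7 at 4 h.

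Nitrogen genes held members on both sides. Of 34 in the amino acid permease and nitrogen list, 12 were above and 9 below all 3 arrays, with a median of 0.04. DIP5, the permease of glutamate and aspartate, had signals of 579 at 0 h, 1364 and 664 at 2 and 4 h, 2816 at 5 h, and 1423 and 1050.2 at 6 and 8 h. CAR1 and CAR2, which encode arginase and ornithine aminotransferase of arginine breakdown, were higher by 0.94 and 0.89. CAR1 gave 2640.5, 2341, 1089.9, 4712, 2755 and 2288 at 0, 2, 4, 5, 6 and 8 h. These 3 genes reached their highest signal of the 6 arrays at 5 h. GAD1, the glutamate decarboxylase gene, was lower, with 593 at 5 h, against 1217, 1476 and 1379 at 2, 6 and 8 h, 193 at 0 h and 1273 at 4 h (log2 difference -1.19 ± 0.19).

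Sulfur assimilation genes were low. Of 28 in the methionine and sulfur list, 20 were below and 0 above all 3 arrays, 2 were lower by 2-fold, and the median was -0.39, -0.33 after quantile normalization and -0.22 after centring. MET16, which encodes the reductase of activated sulfate, gave 195 at 0 h, 142.6 and 314 at 2 and 4 h, 76.8 at 5 h, and 204 and 222 at 6 and 8 h. SAM2, an S-adenosylmethionine synthetase gene, gave 1177, 1659, 1517, 765, 1548 and 1941 at 0, 2, 4, 5, 6 and 8 h. MET3 and MET14, the sulfurylase and kinase genes of the first steps, were lower at -0.96 and -0.94. All 4 were at their lowest of the 6 arrays at 5 h, also under the untreated culture. Without any 1 of the 3 compared arrays the count past 2-fold was 3.

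Phosphate and phospholipid genes had a few low members. In the phosphate list 3 of 18 were lower by 2-fold, against 1.74% of all genes, and the median was -0.07. Below all 3 arrays were 8 (44.4%, against 43.5% of all genes) and above them 3 (16.7%, against 18.1%). PHO84, the high-affinity phosphate transporter gene, had signals of 1271 at 5 h, against 2069, 2750.0 and 3368 at 2, 6 and 8 h, 2298 at 0 h and 9104 at 4 h. GIT1, a permease of glycerophosphoinositol, gave 23.6 at 0 h, 65.7 and 858 at 2 and 4 h, 48.6 at 5 h, and 94.2 and 199 at 6 and 8 h. Both were far higher at 4 h than at any other time, and their 5 h signals were below those of 2, 6 and 8 h. Without the 8 h array none of the 18 was lower by 2-fold. In the inositol and phospholipid list 12 of 21 were below and 0 above all 3 arrays, with a median of -0.25. OPI3 and GIT1 were its members past 2-fold, and CKI1, the choline kinase gene, was lower at -0.82.

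Glycolysis and fermentation genes, apart from HXK1 and some others, were mostly on the higher side as deposited. Hexose transporter and glucose sensor genes were not: of 17, 4 were above (23.5%, against 18.1% of all genes) and 9 below all 3 arrays (52.9%, against 43.5%), with a median of -0.16. Of 27 glycolysis and fermentation genes, 15 were above and 5 below all 3 arrays, with a median of 0.17; after quantile normalization 9 were above and 8 below, with a median near 0. GLK1, the glucokinase gene, was lower at -0.64, with 999, 3865, 2435, 2009, 3116 and 2559 at 0, 2, 4, 5, 6 and 8 h. MTH1, a repressor in glucose sensing, gave 33.5 at 5 h, against 82.5, 84.9 and 88.4 at 2, 6 and 8 h, 77.8 at 0 h and 28.8 at 4 h, lower at -1.35. HXT1, the low-affinity glucose transporter gene induced by high glucose, gave 1899 at 0 h, 1694 and 468 at 2 and 4 h, 1969.9 at 5 h, and 1128 and 641 at 6 and 8 h, and HXT4 was lower at -0.95.

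Cell cycle genes were split by phase. Of 50 G1 to S and DNA replication genes, 29 were above and 7 below all 3 arrays, and the median was 0.23, 0.31 after quantile normalization and 0.40 after centring. YOX1, a homeodomain repressor gene, had signals of 256, 157, 208, 304, 152 and 162 at 0, 2, 4, 5, 6 and 8 h. RNR1, which encodes the large subunit of ribonucleotide reductase, gave 3074 at 5 h, against 2204, 1450.5 and 2106 at 2, 6 and 8 h, 2464 at 0 h and 1928 at 4 h. CLB6, an S-phase cyclin gene, and TOS4 were higher by 0.78 and 0.71. All 4 were at their highest of the 6 arrays at 5 h. Of 11 histone genes only 5 could be followed, and 3 of them, HTB1, HTB2 and HTZ1, were above all 3 arrays (median of the 5, 0.37). HTB2, a histone H2B gene, gave 2765 at 0 h, 2528 and 1981 at 2 and 4 h, 3466 at 5 h, and 2007 and 2405 at 6 and 8 h.

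Mitotic genes lay on the other side. Of 33 G2 to M and mitotic exit genes, 23 were below and 1 above all 3 arrays, with a median of -0.36, -0.22 after quantile normalization and -0.19 after centring, where all genes were at -0.03 and 0.04. FAR1, which encodes a cyclin-dependent kinase inhibitor, had signals of 1212, 1526, 1762, 806, 1298 and 1332 at 0, 2, 4, 5, 6 and 8 h. SPO12, a gene of mitotic exit, gave 164 at 5 h, against 223, 308 and 278 at 2, 6 and 8 h, 264 at 0 h and 349 at 4 h. MYO1, the type II myosin of the contractile ring, was lower at -0.74 on its brightest probe set of 8. YRO2, listed here and related to a heat shock membrane protein, was the member past 2-fold, with 47.5 at 0 h, 467 and 561 at 2 and 4 h, 280.1 at 5 h, and 820.5 and 989 at 6 and 8 h, and 2 members passed without the 2 h array. A smaller share of cells in a phase and less RNA per cell cannot be told apart in such a culture.

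**Figure D4:**
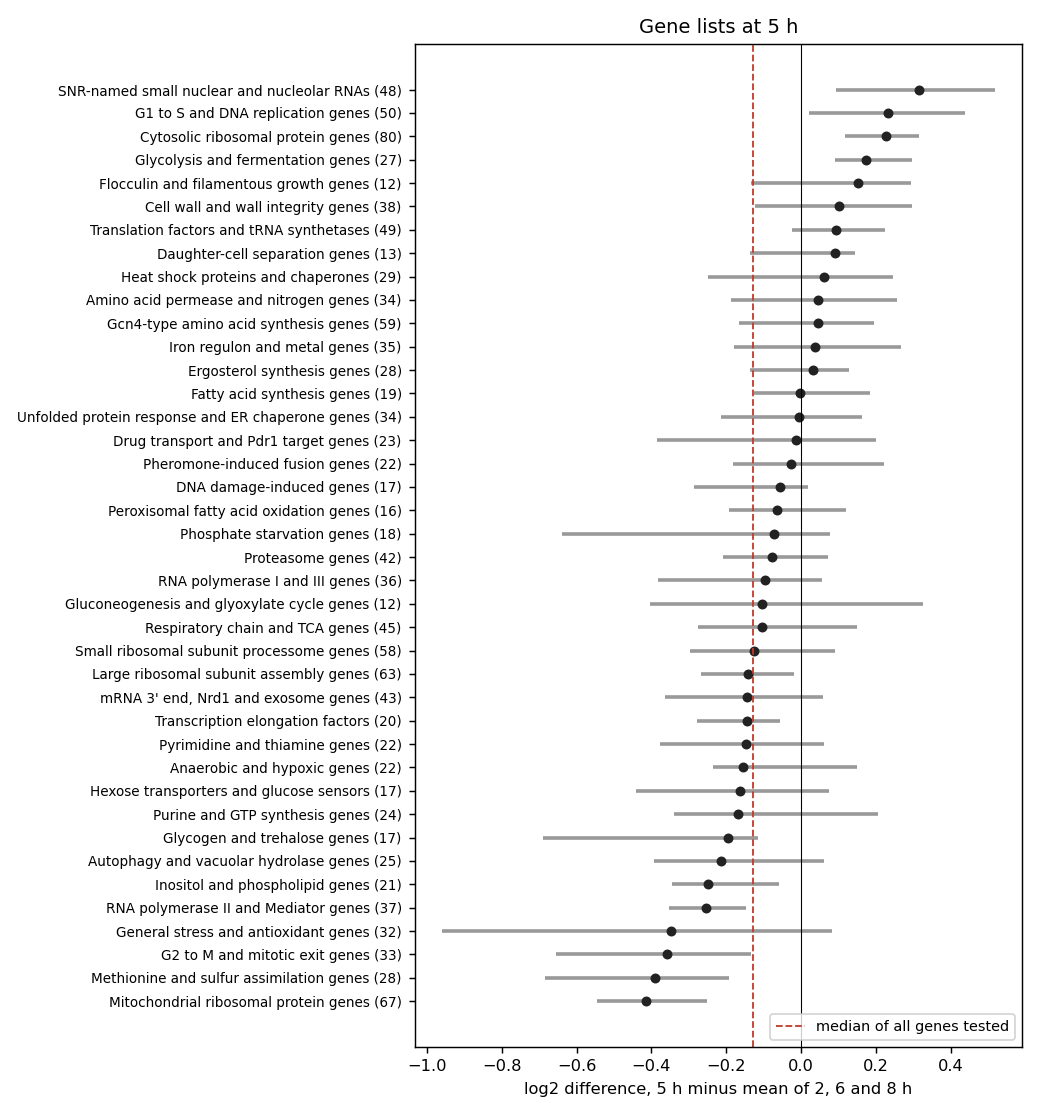
Median (dot) and quartiles (bar) of the log2 difference between 5 h and the mean of 2, 6 and 8 h for each gene list with 10 or more tested members, number in brackets. The dashed line marks the median of all 4996 genes at -0.13; SNR-named RNAs (0.32), G1 to S genes (0.23) and cytosolic ribosomal proteins (0.23) lie at the top and mitochondrial ribosomal proteins (-0.42) at the bottom.

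The Paf1 complex and its polymerase were near or below the general level. CTR9 was inside the range of the 3 arrays, with 66.6, 59.5, 52.7, 64.1, 73.6 and 48.6 at 0, 2, 4, 5, 6 and 8 h. LEO1 gave 259 at 5 h, against 360.0, 385 and 309 at 2, 6 and 8 h, 553 at 0 h and 464 at 4 h, RTF1 148 at 0 h, 164 and 169.5 at 2 and 4 h, 120.0 at 5 h, and 157 and 178 at 6 and 8 h and CDC73 734, 809, 804, 681, 966 and 790.2 at 0, 2, 4, 5, 6 and 8 h. These last 3 of the 5 genes were below all 3 arrays (60%, against 43.5% of all genes), at -0.44, -0.47 and -0.32, none by 2-fold. Of 37 RNA polymerase II and Mediator genes, 23 were below (62.2%, against 43.5% of all genes) and 4 above (10.8%, against 18.1%), with a median of -0.25. RPO21, which encodes the largest subunit, was an exception at 0.59, with 6104 at 5 h, against 4859, 3217 and 4259.8 at 2, 6 and 8 h, 6129 at 0 h and 3825 at 4 h. SRB7, a Mediator subunit gene, was lower at -0.73. In the list of elongation factors 10 of 20 were below (50%) and 1 above (5%), with a median of -0.14, and DST1, the gene of TFIIS, was lower at -0.53. In the list of 3' end, Nrd1 and exosome genes 23 of 43 were below (53.5%) and 5 above (11.6%), with a median of -0.14. Both medians were near the -0.13 of all genes, and the shares below were not far from 43.5%.

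The other lists are given by their medians, to be set against -0.13 for all genes. Among those with 10 or more members, the highest were of flocculin and filamentous growth genes (0.15, 12 genes), cell wall genes (0.10, 38), daughter-cell separation genes (0.09, 13), Gcn4-type amino acid synthesis genes (0.04, 59), ergosterol genes (0.03, 28) and fatty acid synthesis genes (-0.004, 19). Medians still above that of all genes were found for ER chaperone (-0.01, 34), drug transport (-0.01, 23), pheromone-induced (-0.03, 22), DNA damage (-0.06, 17), peroxisomal (-0.06, 16) and proteasome genes (-0.08, 42). They were near it, at -0.10, for RNA polymerase I and III genes (36) and for gluconeogenesis genes (12, with 4 above and 4 below all 3 arrays), and below it at -0.15 for pyrimidine and thiamine genes (22), -0.16 for hypoxic (22) and hexose transport genes (17), -0.17 for purine genes (24) and -0.22 for autophagy genes (25). Lists with fewer than 10 members past the filter, some of them farther from all genes than those with more, were galactose (-0.07, 3 genes), sporulation (-0.06, 6), subtelomeric COS (0.26, 5), a-specific (0.13, 6) and alpha-specific genes (0.38, 3). Apart from genes named above, those past 2-fold in these lists were FLO10 above, and SER3, ADE17, FUR4, AQR1 and GCY1 below. MFA1 was highest at 5 h, with 7874 at 0 h, 5848 and 7852 at 2 and 4 h, 15883 at 5 h, and 9807 and 11386 at 6 and 8 h (log2 difference 0.87).

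A few of the genes farthest from the others were dim or poorly known. YLR108C, uncharacterised, had signals of 32.9, 101, 41.8, 187, 103 and 48.3 at 0, 2, 4, 5, 6 and 8 h, and MPT5, an mRNA-binding Puf protein gene, 2611 at 5 h, against 1595, 986 and 1108 at 2, 6 and 8 h, 1872 at 0 h and 605 at 4 h. YLR358C and YAL063C-A had 5 h signals of 77.2 and 86.3 and 2 h signals of 16.2 and 18.7. Their means over 2, 6 and 8 h, 32.6 and 35.6, were under the filter level of 36.7. They thus passed the filter, and entered the 16 higher genes, only through their 5 h signal. FLO10, a flocculin gene, was higher by 1.06 on its brightest probe set, with 0 h at 174 and 5 h at 148. Its 7 probe sets ran from -0.90 to 1.30, but those with a negative difference were too dim for the filter. The FLO10 probe sets that passed ran from 0.46 to 1.30. YOR338W, uncharacterised, and FMP16, a gene of a mitochondrial protein, were lower, at -1.41 and -1.55. Their 5 h signals of 18.6 and 26 were under the 44.2 reached by controls for sequences yeast lacks, so these sizes are uncertain. YOR338W was under that level at 2 and 6 h as well (36 and 33, against 102.7 at 8 h). Its order against the 2 and 6 h arrays is therefore not read, nor that of FMP16 against 0 h (18.4). Of 230 genes with 2 or more tested probe sets, 140 had the same sign on all of them, and of 20 with a counted probe set 14 did. The long genes FKS1 and SPA2, chosen after their values were seen, show the spread: FKS1, a glucan synthase gene, had 8 probe sets between 0.29 and 1.46, and SPA2, a polarity gene, 7 between -1.33 and 1.89.

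Gene length moved weakly with the difference. Lengths in the RefSeq table of assembly R64 were compared over 4850 nuclear protein-coding genes, without tRNA and other non-coding RNA genes. Across them the Spearman correlation of length and log2 difference was 0.141, given as a description of genes that share 4 arrays. Among these, genes of 78 to 690 bp had a median of -0.19 and genes of 2196 to 14733 bp one of -0.05. With all gene classes included, the 87 lower genes had a median length of 798 bp and the 16 higher ones 1421 bp, against 1245 bp over all genes. Of the 87, 14 were tRNA genes of 71 to 74 bp and 1 a snoRNA, against 86 and 45 of the 4996. The 798 bp is therefore not a length of protein-coding genes alone and is not set beside the correlation. The part of length in any result was not tested.

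The arrays that the comparison left out were read for the same genes. At 4 h, 70 of the 87 genes that were lower at 5 h had a higher signal than at 0 h (80.5%, against 59.4% of all genes), with a median 4 h to 0 h log2 difference of 0.69 against 0.12. Of the 16 higher genes 4 did (25%), with a median of -0.79. The median signal of the 16 was 162 at 0 h, 154 and 98.5 at 2 and 4 h, 880.5 at 5 h, and 226 and 163 at 6 and 8 h, where the 5 h value is high because the rule chose them for it. Of the 16, 13 were above the 0 h array (81.2%, against 47.3% of all genes) and 8 were within 1.5-fold of it. The 4 h array carried the low 5' actin signal and the high spike-ins given above.

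In the strain set the deposited values were scores between -10 and 10 on a scale not stated, so they were compared within that set only. Both paf1 deletion scores were above both wild type scores for 31 of the 87 lower genes (35.6%) and below them for 23 (26.4%), against 20.6% and 24% of all genes. The HSP26 scores were 3.02 and 4.78 on the wild type arrays, 8.79 and 8.58 on those of the paf1 deletion, and 8.91 without CTR9. GPH1 scored 2.05 and 4.55, then 6.87 and 7.45, and 7.02. HXK1 and EGO4 were likewise higher in both deletions. These 4 were picked from the 87, over which the measures differed. The share with both scores above wild type was larger than among all genes, as given, but other measures showed no such shift. The median paf1 deletion minus wild type score was -0.025, against -0.06 for all genes. A higher mean score in the deletion was found for 43 of the 87 (49.4%, against 45.8% of all genes). THO1 and SNR76 went the other way, THO1 with wild type scores of 6.71 and 6.57, paf1 deletion scores of 5.48 and 4.47 and a ctr9 deletion score of 5.58. Among the 16 higher genes, 7 were above in both paf1 deletion arrays (43.8%) and 1 below. FIT2 had scores of 2.95 and 3.50, 5.59 and 6.47, and 6.69 in the same order of strains, and BTN2 of 5.05 and 5.59, 6.89 and 6.96, and 4.68.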

How the data were processed

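Per the labels, biotin-labelled cRNA made from total RNA was read on Affymetrix yeast arrays. For the 6 time course arrays the authors deposited a signal intensity for each probe set, on a linear scale. For the 5 strain arrays they deposited scores between -10 and 10, whose scale is unknown, so both kinds of column were never compared. Which software made and scaled them is not given in the sources used here.

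Of 9335 probe sets 60 controls were left out. Signals under 5.6, the 10th percentile of the 6 arrays, were set to it before log2 was taken of the deposited intensity. Probe sets whose mean signal over the 4 compared arrays was under the 30th percentile (36.7) were left out, which left 6492. Exactly 1 gene was listed for 6504 probe sets in the platform annotation, several for 328 and none for 2443; names, classes and lengths came from the RefSeq table of assembly R64, to which all 6504 matched. The array build is not named in the labels, so no coordinates are given. The probe set with the highest mean stood for each of 5656 genes, 315 of which had several, and 4996 passed the filter.

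limma 3.58.1 (lmFit, eBayes with a trend) in R 4.3.3 compared 5 h with 2, 6 and 8 h, two-sided, with Benjamini-Hochberg adjustment, and was tested on simulated data. Genes named were the Paf1 complex, the 15 largest differences in each direction among counted genes, and up to 4 members per list with the largest absolute difference; others are marked as chosen after seeing their values or lie at the 2-fold line. The comparison and the 48 gene lists were chosen with earlier results of these data known. Lists are described by counts and medians, with no test. Alternatives covered the floor, pseudocount, filter, scaling, each array left out, the 0 h array, the fold minimum and the model. With 1 array per time, precision is limited by the number of arrays.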

Additional observations from a re-analysis of the deposited data

Results flagged for a closer look

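Some control probe sets for ribosomal RNA, outside the comparison, were highest at 5 h. Controls without a target in yeast reached at most 44.2. Of 10 ribosomal RNA controls 4 had their highest signal of the 6 time course arrays at 5 h with that signal over 44.2, and 3 of the 4 were there 2-fold or more above each of the other 5 arrays. The other 6 stayed under 44.2 at 5 h, and 4 of them peaked on another array. The first 18S control had a signal of 110.1 at 5 h, at least 2.49-fold over the other arrays, which were all under 44.2. The second 18S control had 156.8 at 5 h, 3.49-fold over the 44.9 of the next array, which was itself near that level. The first 25S control had 923.9 at 5 h and 173.7 at 0 h, the next highest, a 5.32-fold gap. The cause was not tested.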

How the results depend on the processing

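No paired analysis was possible because the time course arrays carry no replicate numbers and there is 1 array per time. The 63 higher and 111 lower probe sets became 58 lower with a pseudocount of 16, 285 and 296 with no filter on low signals, 23 and 54 with a filter at the 50th percentile, 99 higher after quantile normalization, 117 and 56 after median centring, 70 lower with the 0 h array added, 250 and 586 at a 1.5-fold minimum, and 7 and 40 where the nearest array had to be 2-fold away. Leaving out 1 of the 3 arrays gave 70 to 87 higher and 100 to 174 lower. The limma count of 0 became 58 with no filter, 7 with the filter at the 50th percentile, 21 with a linear time term, and 0 to 324 when 1 array was left out; the 324 came without the 2 h array, where the spread rests on the 6 and 8 h arrays alone, and 0 without the 6 or 8 h array. Without the 2 h array 46 of the 63 and 100 of the 111 remained, without the 6 h array 56 and 86, and without the 8 h array 46 and 84. Fewer probe sets tested, or more, changes the adjustment in limma; the cause of the other changes was not tested. None of the 30 named genes had a difference of the opposite sign under any alternative that gave it a value. They had been chosen for lying outside all 3 arrays and 2-fold or more from their mean. Leaving out 1 array could therefore not reverse a sign, and the lack of reversals is no measure of stability. Of 313 such values 28 moved by more than the SD among the compared arrays. Of 528 list medians under alternatives 60 had the opposite sign, so list medians near 0 carry no direction. Signals near the floor, such as those of dim tRNA and open reading frame probe sets, are the least certain.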
